A study of Gallus gallus with 4 samples.

Results

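TNNC1 and ATP2A3 are a pair of genes whose proteins handle calcium inside the cell, and both were called differentially expressed in the ovary of early and of late sexual maturity chickens. The members were taken by name from the part of the study's supplementary gene table that was used here, where each name is paired with 1 identifier: ENSGALG00000001459 for TNNC1 and ENSGALG00000001564 for ATP2A3. They are 2 of the 17934 genes in the population of the gene ontology (GO) analysis. The identifiers were then followed through the lists of 2 GO tables and 2 Kyoto Encyclopedia of Genes and Genomes (KEGG) tables.

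All birds were Ningdu Yellow chickens, a Chinese breed, reared in cages with free access to feed and water. P-F-O1 and P-F-O2 came from the early maturing sub-breed, from pre-laying hens of 32 days and laying hens of 103 days. L-F-O1 and L-F-O2 came from the late maturing sub-breed, from pre-laying hens of 32 days and hens of 153 days. The sources are divided on whether L-F-O2 was laying, so only its name and age are used. RNA of 5 ovaries was pooled in equal amounts for each library, and with 1 library a condition no difference has a replicate check. The ovary is a mixed tissue, and in such samples fewer cells of a type and less RNA per cell cannot be told apart. In the early sub-breed the hens differ in age and in laying state at once, and the effects of these cannot be told apart.

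Calcium ions act as a switch within cells. A low resting level in the cytoplasm is kept by pumps that move calcium out of the cell or into the endoplasmic reticulum, and a brief release is read by proteins whose EF-hand loops bind the ion. TNNC1 encodes the slow skeletal and cardiac troponin C, the EF-hand subunit through which calcium starts contraction on the thin filament of striated muscle. ATP2A3 encodes SERCA3, a P-type ATPase that uses ATP to pump calcium from the cytoplasm into the endoplasmic reticulum, and in mammals it is known from platelets, lymphocytes, endothelium and some epithelia. TNNC1 is thus a reader of the calcium signal, and ATP2A3 is a pump that ends it.

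Both genes were among the genes called differentially expressed in both age comparisons. The early comparison sets P-F-O1 against P-F-O2 and the late comparison sets L-F-O1 against L-F-O2. A gene was called by the authors, in either direction, on its fold change or on a p-value from the 2 libraries. The tables hold neither a direction nor a level for any library, so whether TNNC1 or ATP2A3 was higher in the younger or in the older ovary is not given here. Of the 17934 population genes, 5037 (28.1%) were called in the early comparison and 4163 (23.2%) in the late comparison. The members were selected on these calls, being called in both comparisons, so their own calls are a description and are no evidence about calcium genes in general.

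TNNC1 stood in the gene lists of 15 of the 166 GO terms tabulated for the early comparison and of 17 of the 182 for the late comparison. In every one of them it was listed as called. A gene has 1 call per comparison, so this repeats that call and adds nothing to it. The terms with TNNC1 split by category. In the early comparison, its 7 biological process terms and 2 molecular function terms had a larger share of called genes than the 28.1% of the population, and its 6 cellular component terms had a smaller one. In the late comparison, the 8 biological process terms and 1 molecular function term lay above 23.2%, and all 8 cellular component terms lay below. The share of called genes ran from 22.8% to 40.7% over the terms of TNNC1 in the early comparison and from 16.6% to 37.2% in the late comparison. Over all tabulated terms, 53.6% in the early comparison and 51.1% in the late comparison lay above the population share. The terms are nested and share genes, so their counts are not independent. They were also tabulated by the authors for their own test of the same calls.

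**Figure D1:**
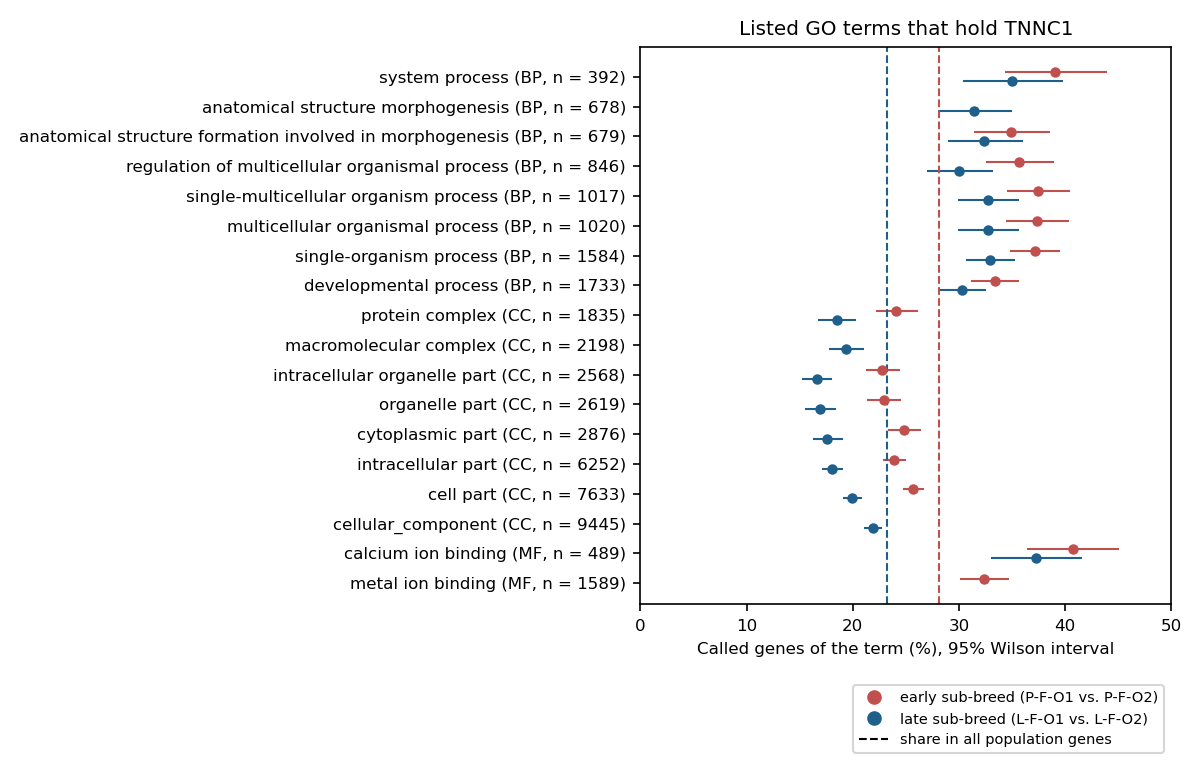
Share of called genes (%, x axis, with 95% Wilson intervals over genes) in each listed GO term that holds TNNC1 (y axis, with its category and number of population genes; BP, biological process; CC, cellular component; MF, molecular function), for the early (red) and late (blue) comparison. Dashed lines are the shares in all population genes, 28.1% and 23.2%; process and function terms lie to the right of their line and component terms to the left, and terms with 1 point are listed for 1 comparison.

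The narrowest molecular function that holds TNNC1 was calcium ion binding, which gathers EF-hand proteins and many cell surface and extracellular proteins. Of its 489 genes, 199 were called in the early comparison (40.7%, 95% Wilson interval 36.4 to 45.1%) and 182 in the late comparison (37.2%, 33.0 to 41.6%). Both intervals lie above the population share. They treat genes as units, which are not replicates of a condition. The authors tabulated the term for their own test of the same calls. Every tabulated term with TNNC1 had an interval clear of the population share, so a clear interval here is no separate support. TNNC1 was 1 of 143 calcium-binding genes called in both comparisons, which is 71.9% of those called in the early and 78.6% of those called in the late comparison. Over all genes in the GO lists these overlaps were 63.6% and 77.7%, so the second is about that of genes in general.

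TNNC1 works inside the cell, so the calcium-binding genes were divided by whether they also stand under intracellular part. Of the 175 that do, 69 (39.4%) were called in the early and 55 (31.4%) in the late comparison. Of the 314 that do not, 130 (41.4%) and 127 (40.4%) were called. The intracellular calcium-binding genes were thus close to the others in the early comparison and had a smaller share in the late comparison, where the intervals, 25.0 to 38.6% and 35.2 to 46.0%, overlap. Among the 115 that stand under cytoplasmic part, 42 were called in the early comparison (36.5%, interval 28.3 to 45.6%) and 31 in the late comparison (27.0%, 19.7 to 35.7%). The first interval lies just above the population share and the second includes it. TNNC1, chosen for its calls, was 1 of the 30 called in both. These were 71.4% of the 42 early calls and 96.8% of the 31 late calls, against 63.6% and 77.7% over all genes. A high overlap was not particular to this group. Of the 39 calcium-binding genes under extracellular region, 59.0% and 48.7% were called, and 94.7% of the late calls were also early ones. Under protein complex, with TNNC1, stood 35 genes, with 13 (37.1%, interval 23.2 to 53.7%) and 11 (31.4%, 18.6 to 48.0%) called. Both intervals include the population share.

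System process, a broad term for the working of organs that includes muscle contraction and sensory perception, was the smallest biological process term with TNNC1. It had 153 of 392 genes called in the early comparison (39.0%) and 137 in the late comparison (34.9%). The shares over all population genes were 28.1% and 23.2%. It shares 24 genes with calcium ion binding, of which 14 were called in the early (58.3%, interval 38.8 to 75.5%) and 10 in the late comparison (41.7%, 24.5 to 61.2%). Both counts hold TNNC1, which was chosen for its calls. All 10, with TNNC1 among them by choice, were also called in the early one, where 77.7% of late calls over all genes were. They were 71.4% of the 14 early calls, against 63.6% over all genes, and the count is small. For 9 of the 24 a name was paired, and all 9 were called early, as every gene with a paired name is. In the late comparison 7 of the 9 were called, TNNC1 among them by choice, against 63.8% of all named genes. The names divide into muscle and nerve or sense organ genes and were read after their calls were known. TNNC1 itself and MYL3 and MYL4, essential light chains of striated muscle myosin, were called in both comparisons. MYL2, the regulatory light chain of ventricular myosin, was called in the early comparison and not in the late one. GUCA1A and GUCA1B, calcium sensors of photoreceptor guanylate cyclase, were called in both, as were PCDH15, a cadherin of hair cells, and CNTNAP1, a protein of the axon's paranodal junction. GRM7, a metabotropic glutamate receptor, was called in the early comparison alone.

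The genes annotated most like TNNC1 were sought by the Jaccard index, the number of listed terms that 2 genes share divided by the number that either has, over the 223 terms of both tables. TNNC1 had 18 terms. Among genes with a paired name, MYL3 came first with an index of 0.833 and NEFL, the neurofilament light chain, second with 0.714. MYL4 (0.667), MYL2 (0.565) and TNNI2 (0.522), the fast skeletal troponin I, followed. All 5 were called in the early comparison, as is every gene for which a name was paired. In the late comparison MYL3, NEFL and MYL4 were called and MYL2 and TNNI2 were not, against 63.8% of the named genes as a whole. Without regard to names, 25 genes had an index of at least 0.5, of which 10 were called in the early comparison (40.0%, interval 23.4 to 59.3%) and 6 in the late comparison (24.0%, 11.5 to 43.4%). Both intervals include the population share. The index describes annotation and holds no measurement of expression.

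ATP2A3 stood in 32 of the 166 terms of the early comparison and in 30 of the 182 of the late comparison. It was again listed as called in every one, which repeats its own call in each comparison. In contrast to TNNC1, most of its terms had fewer called genes than the population. In the early comparison 28 of the 32 lay below 28.1%, and in the late comparison 26 of the 30 lay below 23.2%. The 4 terms above it were metal ion transmembrane transporter activity, ion transmembrane transporter activity, metal ion binding and membrane in the early comparison. In the late comparison they were ion transport, ion transmembrane transporter activity, substrate-specific transmembrane transporter activity and membrane. ATP2A3 therefore took part in terms for transport across a membrane that were rich in called genes, and in terms for ATP and other nucleotides that were poor in them.

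**Figure D2:**
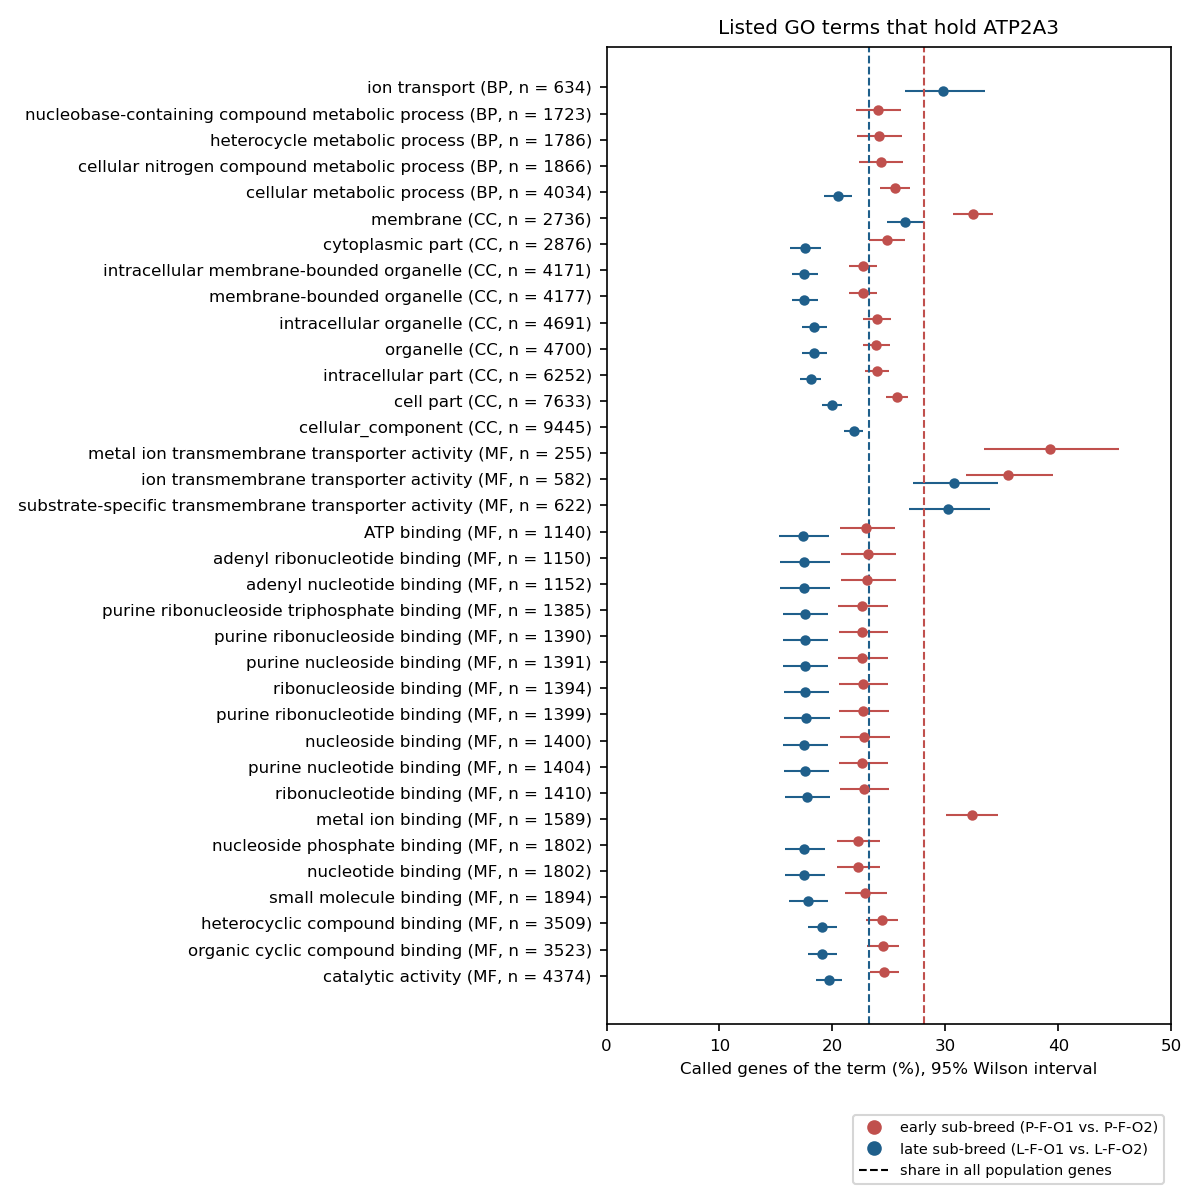
Share of called genes (%, x axis, with 95% Wilson intervals over genes) in each listed GO term that holds ATP2A3 (y axis, with its category and number of population genes; BP, biological process; CC, cellular component; MF, molecular function), for the early (red) and late (blue) comparison. Dashed lines are the shares in all population genes; the transport, membrane and metal ion terms lie to the right of their line, and the 13 nucleotide and nucleoside binding terms fall between 22.2% and 23.1% in the early and between 17.4% and 17.7% in the late comparison.

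Ion transmembrane transporter activity, which gathers channels, exchangers and pumps, had 207 of 582 genes called in the early comparison (35.6%, interval 31.8 to 39.5%) and 179 in the late comparison (30.8%, 27.1 to 34.6%). The narrower metal ion transmembrane transporter activity was listed for the early comparison only, with 100 of 255 genes called (39.2%). By the calls in other lists, 80 of these 255 were called in the late comparison (31.4%). ATP binding had 262 of 1140 genes called in the early comparison (23.0%) and 198 in the late comparison (17.4%). The 13 nucleotide and nucleoside binding terms with ATP2A3 held between 1140 and 1802 genes and share genes with one another, with shares from 22.2% to 23.1% and from 17.4% to 17.7%.

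A pump that spends ATP belongs to both kinds of term, so the ion transporters were divided by whether they also stand under ATP binding. With it were 49 genes, of which 16 were called in the early comparison (32.7%, interval 21.2 to 46.6%) and 14 in the late comparison (28.6%, 17.8 to 42.4%). Without it were 533, of which 191 (35.8%) and 165 (31.0%) were called. The 1091 genes with ATP binding that are not ion transporters had 246 (22.5%) and 184 (16.9%) called. The ATP-binding ion transporters lay nearer to the other transporters, but with 49 genes their interval also includes the population share in both comparisons. Their counts hold ATP2A3, which was chosen for its calls. For metal ions the group shrank to 12 genes, of which 4 were called in each comparison (33.3%, interval 13.8 to 60.9%). This interval includes the population shares, 28.1% and 23.2%. Of the 12, 3 were called in both, ATP2A3 among them by choice. They were 75% of the calls of each comparison, against 63.6% of early and 77.7% of late calls over all genes, and the count is small.

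Named genes among the 49 were read after their calls were known. There were 9, all called in the early comparison, as is every gene with a paired name. In the late comparison 6 of the 9 were called, ATP2A3 among them by choice, about the 63.8% of all named genes. Called in both comparisons, besides ATP2A3, were P2X1 and P2RX2, which are cation channels opened by extracellular ATP, KCNJ12, an inwardly rectifying potassium channel, ATP12A, a proton and potassium pump, and ATP10B, a member of the lipid-moving branch of the P-type ATPases. P2RX7, another channel opened by ATP, ATP2C2, the calcium and manganese pump of the secretory pathway, and CFTR, a chloride channel, were called in the early comparison and not in the late one. Among these 9, ATP binding therefore covers channels as well as pumps.

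**Figure D3:**
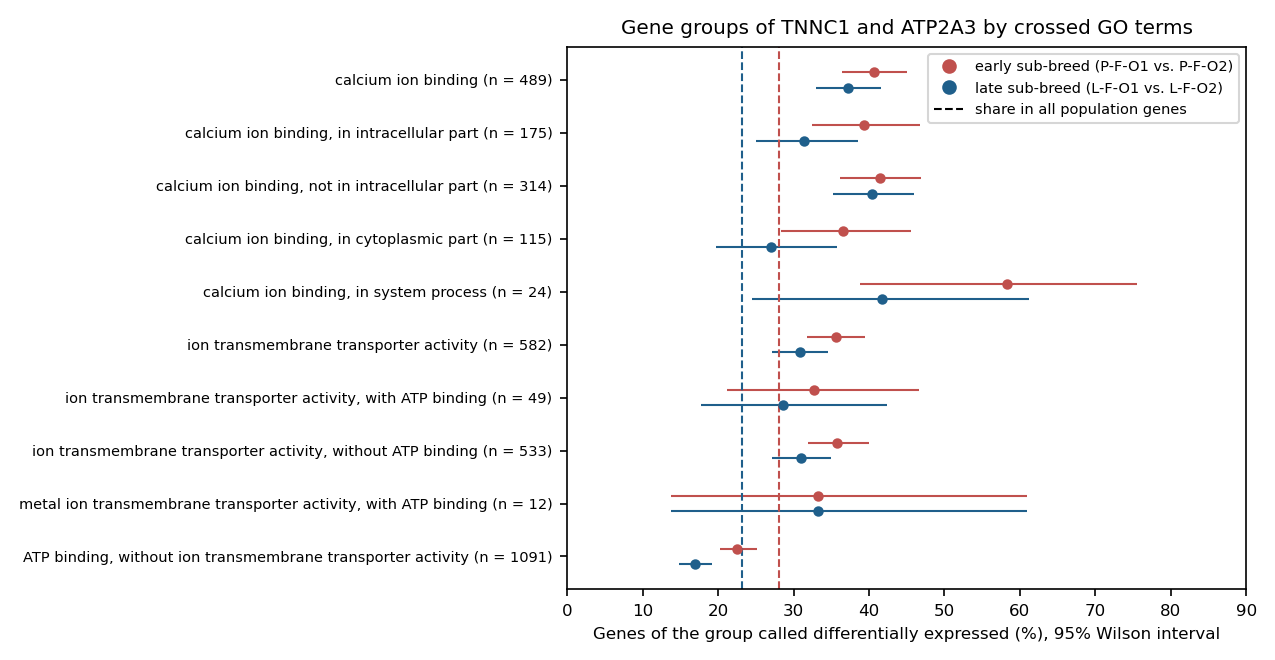
Share of called genes (%, x axis, with 95% Wilson intervals over genes) in groups made by crossing the GO terms of TNNC1 (upper 5 rows) and ATP2A3 (lower 5 rows), with the number of genes in each, for the early (red) and late (blue) comparison. Dashed lines are the shares in all population genes; the groups of 49, 24 and 12 genes have the widest intervals, and ATP-binding genes that are not ion transporters lie to the left of their lines.

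By the same index, the named genes annotated most like ATP2A3, which had 35 terms, were ATP10B (0.971), ATP2C2 (0.800), ATP12A (0.771), NME2 (0.756) and GTPBP5 (0.692). The first 3 are P-type ATPases like ATP2A3. NME2 is a nucleoside diphosphate kinase and GTPBP5 a mitochondrial GTPase. ATP10B, ATP12A and NME2 were called in the late comparison as well, and ATP2C2 and GTPBP5 were not, against 63.8% of the named genes as a whole. Without regard to names, 799 genes had an index of at least 0.5, of which 168 were called in the early comparison (21.0%) and 129 in the late comparison (16.1%). These shares lie below the population, as those of the nucleotide terms do. The terms were tabulated by the authors for their own test of the same calls, so these shares are not independent of how the terms were chosen.

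TNNC1 and ATP2A3 had little annotation in common. They shared 5 of the 48 terms that either had, a Jaccard index of 0.104. These 5 were cell part, cellular_component, cytoplasmic part, intracellular part and metal ion binding, all of them broad. ATP2A3 was not in the list of calcium ion binding although it moves calcium, and TNNC1 was in none of the transport terms. Metal ion binding, with 514 of 1589 genes called (32.3%, against 28.1% of the population), was listed for the early comparison only. By the calls in other lists, 415 of the 1589 were called in the late comparison (26.1%, against 23.2%). Of the 1589, 13 stood in no late list.

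The pathway tables listed them together. The study itself had already listed both among the called genes of the pathways it found enriched in both comparisons, calcium signaling among them. Their joint listing is therefore not a new result. The calcium signaling pathway, which in KEGG spans receptors and channels at the surface, the stores inside the cell and the proteins that read calcium, listed both genes as called in both comparisons. Of the 15 background genes of this pathway, 8 were called in the early comparison (53.3%, interval 30.1 to 75.2%) and 10 in the late comparison (66.7%, 41.7 to 84.8%). Over all genes in the GO population the shares were 28.1% and 23.2%. The pathway background is a different and narrower gene set, and its overall share of called genes is not given. The shares are therefore not like for like, and no excess can be read from them. Both counts hold the 2 members, which were chosen for their calls, and without them 6 of 13 (46.2%, interval 23.2 to 70.9%) and 8 of 13 (61.5%, 35.5 to 82.3%) were called. All 8 early calls were among the 10 late ones, against 63.6% of early calls over all genes. The overlap of the 2 members was fixed by their choice, and without them all 6 early calls were among the 8 late ones. In the other direction, 8 of the 10 late calls were early ones, against 77.7% over all genes. These overlaps are not like for like either, as no overlap is given for the pathway background as a whole. The call of each of the 10 was the same in the GO lists as in the KEGG lists. Both kinds of list rest on the same calls by the authors, so this is no separate support.

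For 5 of the 10 genes a name was paired, and these are described in the order of the signal's path. Every gene with a paired name was called early, and all early calls of this pathway were also late calls. That these 5 were called in both comparisons was thus fixed by the naming, and 2 of them are the members. HTR4, a serotonin receptor, and PTAFR, the receptor of platelet-activating factor, sit at the surface. P2X1 (P2RX1) lets cations in when it binds ATP, ATP2A3 returns calcium to the store, and TNNC1 binds it at the filament. Of the other 5, 3 were called in both comparisons and 2 in the late comparison alone. Annotation differed widely within the pathway. P2X1 shared 25 terms with ATP2A3 and 12 with TNNC1, whereas HTR4 shared 1 with each.

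**Figure D4:**
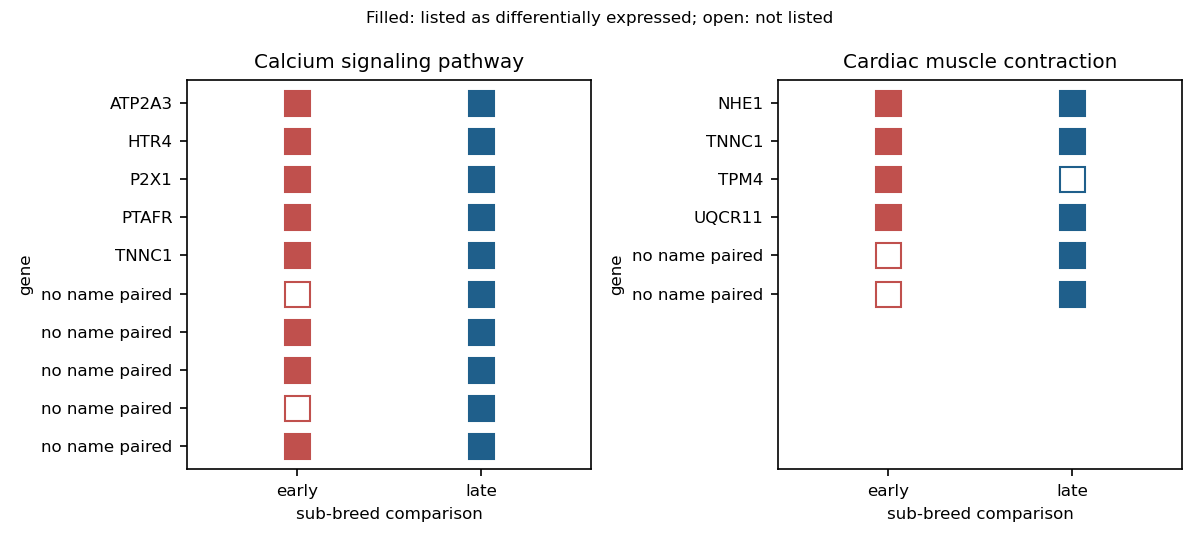
Genes listed as called in the KEGG calcium signaling pathway (left) and cardiac muscle contraction (right), by gene (y axis) and comparison comparison (x axis); filled squares are listed genes and open squares are genes not listed in that comparison. The 5 named genes of calcium signaling are filled in both columns, since every named gene is called early and all early calls of this pathway are also late calls. TPM4 is filled in the early column only.

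TNNC1 was named in 2 of the 69 pathways tabulated for the early comparison and in 2 of the 68 for the late comparison, and ATP2A3 in 1 of each. The second pathway of TNNC1 was cardiac muscle contraction, with 4 of 7 background genes called in the early comparison (57.1%, interval 25.0 to 84.2%) and 5 in the late comparison (71.4%, 35.9 to 91.8%). Without TNNC1 these were 3 of 6 and 4 of 6, and the intervals are wide at this size. Over all genes in the GO population the shares were 28.1% and 23.2%. As for calcium signaling, the pathway background is a narrower gene set, so no excess can be read from these shares. TNNC1, by choice, NHE1, a sodium and proton exchanger of the plasma membrane, and UQCR11, a subunit of respiratory complex III, were called in both. These were 3 of the 4 early and of the 5 late calls, where over all genes the overlaps were 63.6% and 77.7%. The counts are too small to set apart from these. TPM4, a tropomyosin, was listed in the early comparison alone. It stood in no GO list, so its call could not be set beside the GO lists. Listed in the late comparison alone were 2 genes with no paired name. One of these 2 shared 16 terms with TNNC1, the most of any gene in either pathway, and the other was also in calcium signaling.

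The pathway lists hold a narrow range of identifiers. Of the 181 identifiers in the KEGG lists of both comparisons, 176 (97.2%) have a number below 3000, against 14.5% and 13.9% of the called genes named in the GO lists of the early and late comparison. TNNC1 and ATP2A3 have numbers in this range. How many genes entered the pathway analysis is not given in the sources used here.

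Further genes of calcium handling were followed from lists by role. Of 60 symbols, 7 were paired with an identifier, all called in the early comparison as every paired name is, so that only the late call can be read. In the late comparison 5 of the 7 were called, of which 2 are the members, chosen for their calls. Without them 3 of 5 (60%) were called, about the 63.8% of all named genes in the late lists. Besides the members, SLC24A3, a sodium, calcium and potassium exchanger, CACNA2D3, an auxiliary subunit of voltage-gated calcium channels, and JPH3, which ties the endoplasmic reticulum to the plasma membrane, were called. ATP2C2 and CACNB2, a channel subunit, were not. None of the 6 release channels on the list, the ryanodine and inositol trisphosphate receptors, had a paired name, nor had another pump of the SERCA family. Names were available for only a part of the genes called early, so a missing name does not say that a gene was not called.

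TNNC1 is a marker of striated muscle and ATP2A3 is known from blood cells in mammals, so markers of other cell types in the tissue were followed in the same way. Of 10 smooth muscle markers, 2 were paired (ACTG2 and TPM1) and both were called in the late comparison. Of 12 striated muscle markers, 3 were paired, and MYL3 was called whereas MYL2 and TNNI2 were not. MYL4, the other striated muscle light chain named above, was not on this list and was called. Of 10 markers of blood cells and platelets, 5 were paired, and PTPRC, CD79B and ITGB3 were called whereas CD3E and HBAD were not. Among 8 oocyte markers, 4 were paired and 3 called, namely the egg coat genes ZP2, ZP3 and ZP4 but not BMP15, and among 8 granulosa markers, STAR was the 1 paired and was not called. In all, 9 of 15 paired markers were called (60%), about the 63.8% of all named genes. With 1 to 5 paired markers per type, all called early, these calls cannot show whether any cell type changed. By quantitative PCR the study found BMP15 changed in both comparisons. It also reported INHA and INHBA, granulosa markers without a paired name here, as differentially expressed. The lists give no levels, and the part of other cell types in the calls of TNNC1 and ATP2A3 was not tested.

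In the RefSeq annotation of GRCg7b, a later build than the one the reads were aligned to, no other gene overlaps TNNC1 or ATP2A3. TNNC1 has 1 RefSeq transcript and ATP2A3 has 3. The next protein-coding gene after ATP2A3 in map order is P2RX1 (P2X1), also of the calcium signaling pathway, which was called in both comparisons. CAMKK1, a kinase that calcium and calmodulin activate, comes next and was called in the early comparison and not in the late one. On the TNNC1 side, STAB1, a scavenger receptor, is the second gene after it and was called in both. The 5 other nearest genes had no paired name, and these neighbours were looked up after the calls were known. Every gene with a paired name was called early, and 63.8% of the named genes in the late lists were called late.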

How the data were processed

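Ovary RNA of 4 pooled libraries was sequenced by the study. After quality trimming, the authors mapped the reads with TopHat on the build galGal4, as the submitters' processing notes name them, and compared FPKM between 2 libraries with Cuffdiff. The called genes went into Goatools and KOBAS. The deposited tables give, per GO term or KEGG pathway, gene numbers and identifiers, and no level or depth per library. The study itself reported more clean reads, and a smaller mapped share of them, for the older library of each sub-breed. Age and depth thus differ together in both comparisons, and the part of depth in the calls was not tested. Their p-value columns hold the authors' own tests and were not used. Levels of the members in the study's supplementary gene table were not used here either. That table gave names only: 1539 of the 1947 identifiers used have one, and all of these identifiers are called in the early sub-breed. RefSeq genes of GRCg7b matched 0 identifiers directly.

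Gene lists cut across lines in the late GO table were rejoined at 44 places, each completed from the 1 intact identifier that matched, after which every list had its deposited number of genes. The rejoining was tested on simulated data. Shares were set beside those of all population genes, with 95% Wilson intervals over genes. No test was possible with 1 library per condition. Named genes were the members, paired genes of their pathways and lists, and the 5 most similar named genes. The members and lists were chosen with earlier results of these data known. Alternatives covered the terms counted, the background, the source of the call and the likeness measure. Python 3.11.15 and SciPy 1.17.1 were used.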

Additional observations from a re-analysis of the deposited data

How the results depend on the processing

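No paired analysis was possible because each condition had 1 library, and no library could be left out for the same reason. With only biological process terms, the number of terms listing TNNC1 as called was 7 in the early and 8 in the late comparison, and that of ATP2A3 was 4 and 2. With only terms of 20 to 500 population genes, TNNC1 kept 2 terms in each comparison and ATP2A3 1 and 0. These alternatives count fewer terms by construction. The share called in calcium ion binding was 1.449 and 1.603 times the background in the early and late comparison. For ion transmembrane transporter activity it was 1.266 and 1.325 times. These ratios and the number of terms above the background stayed within 1.5 times or within their intervals under every alternative tried for them. No alternative made a call anew, so the calls of both genes could not change. The pathway counts did not change either, but both sources of their calls hold the same calls by the authors. The ranking of similar genes depended on the measure and on the terms used. With the overlap coefficient 0 of the 5 named genes of either member stayed among the first 5. For TNNC1 and ATP2A3, 2 and 3 stayed with biological process terms alone, and 3 and 0 with terms of 20 to 500 population genes. With the early terms alone 4 and 3 stayed, and with the late terms alone 5 and 4. The tables limit every statement to calls without direction or level, in terms that the authors tabulated for their own test of these calls.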
